A study of Mus musculus with 6 samples.

Results

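The Hox genes of the A, B, C and D clusters were examined in 2 muscles of adult female C57Bl/6 mice aged 6 months, described by the study as normal. The superficial masseter closes the jaw, and the tibialis anterior lies in the lower hind limb and lifts the foot. Each muscle was represented by 3 samples of frozen tissue, each hybridised to 1 short-oligonucleotide array. The study compared masticatory with limb muscle. Nothing in the labels states that the samples were from different mice, so the p-values below measure only the spread between these samples, which may be technical. The members were all probe sets whose single gene symbol in the platform annotation was Hox followed by a cluster letter and a number, taken without any filter on signal. This gave 37 probe sets for 31 genes, out of 22690 probe sets on the array and 39 Hox genes in the RefSeq gene table. Of the 8 Hox genes without a member, Hoxb8, Hoxd3 and Hoxd4 are named only on 3 probe sets that carry the symbols of several Hox genes. Hoxa3, Hoxa4, Hoxa9, Hoxb4 and Hoxc6 were each read by more than 1 probe set.

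Hox genes encode homeodomain transcription factors that give cells their position along the body axis and along the limb. They lie in clusters, and their order within a cluster, given by the paralogue number, follows the order of the body regions in which they act, from low numbers toward the head to high numbers toward the tail and the limb tip. In the limb skeleton, paralogues around Hox9 and Hox10 are known for the upper segment, Hox11 for the segment between knee and ankle or elbow and wrist, and Hox13 for the digits. Jaw muscles form in the first branchial arch, whose neural crest is known to lack Hox expression, and adult connective tissue cells of the limb are known to keep part of their embryonic Hox pattern.

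Of the 31 member genes, 18 had 1 or more entries in the RefSeq promoter table (assembly GRCm38.p6), 20 entries in all. The 250 bases before the annotated start are printed here for 3 genes of the A cluster on chromosome 6, minus strand: Hoxa9, which held the member that passed the test, Hoxa10, which came next by its p-value, and Hoxa13, whose groups overlapped. They are written 5′ to 3′, with CG dinucleotides in capitals. CG dinucleotides are the sites of DNA methylation and are dense in many promoters under Polycomb control, a known feature of Hox clusters.
Hoxa9, chr6:52227371-52227620: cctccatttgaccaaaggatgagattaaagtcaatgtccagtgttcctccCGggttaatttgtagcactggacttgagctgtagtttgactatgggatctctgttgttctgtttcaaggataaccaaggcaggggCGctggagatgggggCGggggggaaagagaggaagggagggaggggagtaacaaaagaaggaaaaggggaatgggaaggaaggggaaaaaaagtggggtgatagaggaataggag
Hoxa10, chr6:52240855-52241104: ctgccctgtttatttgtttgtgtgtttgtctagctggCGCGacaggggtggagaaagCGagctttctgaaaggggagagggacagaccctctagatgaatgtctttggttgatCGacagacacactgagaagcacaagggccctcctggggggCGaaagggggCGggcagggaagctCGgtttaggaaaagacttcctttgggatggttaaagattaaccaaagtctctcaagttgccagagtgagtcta
Hoxa13, chr6:52260881-52261130: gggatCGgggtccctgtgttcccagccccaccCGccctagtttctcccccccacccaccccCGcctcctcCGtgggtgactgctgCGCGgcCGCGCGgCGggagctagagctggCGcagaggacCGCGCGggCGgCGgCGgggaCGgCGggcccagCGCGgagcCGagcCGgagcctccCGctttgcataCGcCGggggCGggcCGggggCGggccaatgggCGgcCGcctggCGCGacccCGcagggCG
The Hoxa9 window held 3 CG dinucleotides, the Hoxa10 window 7 and the Hoxa13 window 35. Across the 20 entries of member genes the number ran from 2 to 35 with a median of 13, against a median of 6 over all 32851 entries of the table. Hoxa10 had a further entry nearer to Hoxa9, with 20. The letters TAAT, the core that homeodomains bind, were present on either strand in 15 of the 20 member windows, or 75.0%, and in 54.9% of all windows of that length. The letters TGATNNAT, a form of the joint Pbx and Hox site, were present in 3 of the 20, or 15%, and in 7.68% of all windows. The Hoxa9 and Hoxa10 windows held TAAT and the Hoxa13 window did not. Among windows not printed, that of Hoxa7, whose groups did not overlap, lacked TAAT, and that of Hoxd8, whose groups overlapped, held it. The Hoxa5 window, of another gene without overlap, held 28 CG dinucleotides. These are counts of letters, and binding and methylation were not measured.

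Deposited values were linear signal intensities with the same 2% trimmed mean, 150.1, on all 6 arrays. Array medians ran from 44.1 to 50.7. Signals at or under 1 numbered 136 on masseter 3, 142 on tibialis anterior 1 and 280 to 302 on the other arrays. Detection calls were not used here. A signal of 28.6, the 40th percentile of the mean signals of all probe sets, served as the level under which values are near background and ratios are imprecise. Of the 8 skeletal muscle markers all were well above that level, with a mean log2 signal of 13.53 to 13.88 on the masseter arrays and 13.96 to 13.97 on the tibialis anterior arrays. Of these 8 markers 1 was lower in the masseter, the fast myosin heavy chain gene Myh4, with means of 6866 and 19010 (-1.47 ± 0.19, limma adjusted p = 0.0184). For the Gapdh control, the ratio of 3′ to 5′ signal, which moves with RNA integrity, was 2.46 to 2.92 on the masseter arrays and 1.87 to 2.07 on the tibialis anterior arrays. That of the Actb control was 2.71 to 3.34 and 2.59 to 2.79. Its part in the Hox differences was not tested. In whole muscle, fewer cells of a type and less RNA per cell cannot be told apart.

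Of the 37 Hox probe sets 1 passed the test, and it was lower in the masseter. Hoxa9, a posterior gene of the A cluster, read by probe set 1455626_at, had masseter signals of 10.3, 4.7 and 7.0 and tibialis anterior signals of 292.7, 394.9 and 322.9. A further 11 probe sets, of Hoxa4, Hoxa5, Hoxa7, Hoxa10, Hoxa11, Hoxb5, Hoxb6, Hoxc4, Hoxc6, Hoxc8 and Hoxc9, had an unadjusted p under 0.05 with the tibialis anterior mean above the masseter mean, and missed the threshold of 0.05 on the adjusted p. No Hox probe set had an unadjusted p under 0.05 in the other direction. Differences are given as log2 signal of the masseter minus that of the tibialis anterior, followed after the ± sign by the standard error (SE) from limma, n = 3 per muscle throughout, and adjusted p-values are limma's, adjusted over all 22626 probe sets that are not controls.

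Against the whole array, 1 of 37 Hox probe sets passed lower in the masseter and 0 passed higher, where 0.327% of all probe sets passed lower and 0.292% higher. At an unadjusted p under 0.05 the Hox counts were 12 lower and 0 higher, where 4.57% of all probe sets were lower and 5.29% higher. The signals of the 2 muscles did not overlap in 12 of the 37 with all masseter arrays below all tibialis anterior arrays, and in 1 of the 37, a Hoxa3 probe set, the other way round. Over all probe sets 6.75% were separated with the masseter below and 7.68% with the masseter above. The sign of the difference was negative in 27 of the 37, and the median difference was -0.71, against 0.03 over all probe sets. The Hox median was -0.23 with an offset of 16 added to the signals and -1.10 without replicate 3. With a floor of 16 on the signals it was -0.09, and 21 of the 37 were negative. These counts describe the list, and no test of the list was made. The filter on mean signal used in an alternative below kept 9 of the 37, and in 13 of the 37 at least 1 muscle's mean reached 28.6. In all 13 the tibialis anterior mean reached it, and in 4 of them the masseter mean also did. The means of the remaining 24 lay under it in both muscles.

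**Figure D1:**
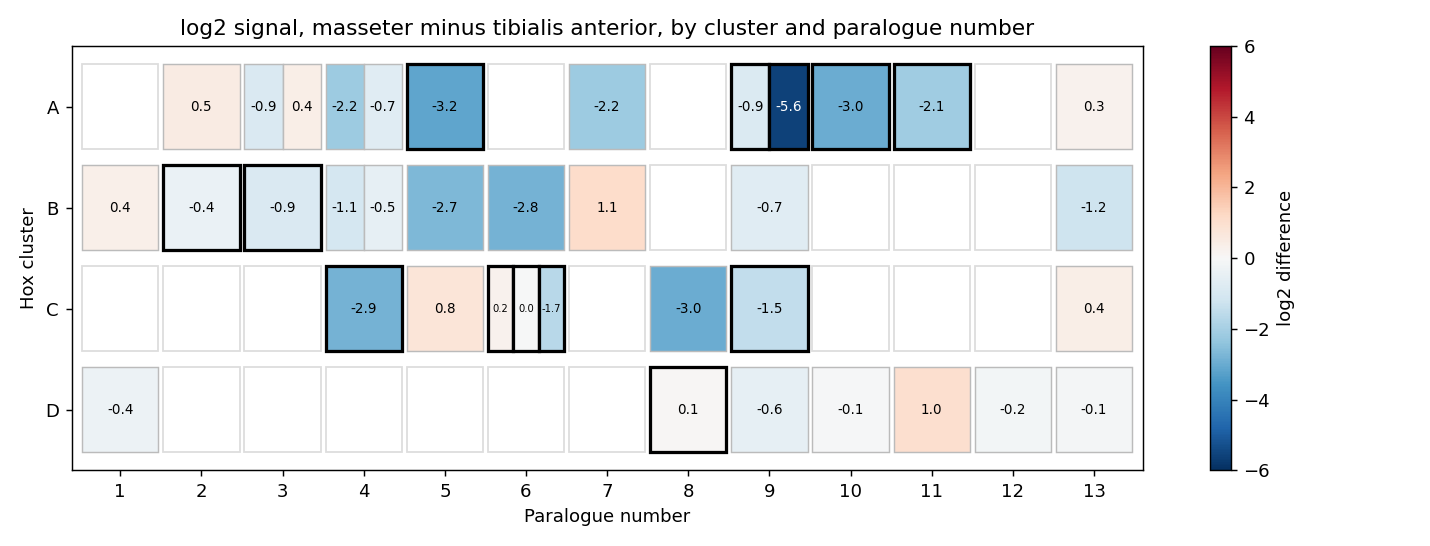
Each filled cell is 1 Hox probe set, placed by cluster (rows) and paralogue number (columns), with the log2 difference, masseter minus tibialis anterior, as colour and number. Cells of a gene with several probe sets are divided, thick outlines mark a mean signal of at least 28.6 in 1 muscle, and empty outlines mark positions without a member. The strongest negative value is Hoxa9 at -5.58 (drawn as -5.6), and the D cluster cells lie between -0.56 and 1.02.

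The A cluster held the member with the widest difference. Of its 12 probe sets, 1 passed, 6 had an unadjusted p under 0.05 with the lower mean in the masseter, and the median difference was -1.52. On the whole array 0.327% passed lower, and 4.57% were lower at that p. For Hoxa9 probe set 1455626_at the lowest tibialis anterior signal, 292.7, lay far above the highest masseter signal, 10.3. All 3 masseter values lay under 28.6, so the masseter level was at least 11.7-fold lower when set against that level. The fitted difference was -5.58 ± 0.40 (adjusted p = 0.00121). The call ended with eBayes without the intensity trend (adjusted p = 0.595) and with a floor of 16 on the signals (-4.39, adjusted p = 0.397), settings under which 0 probe sets of the whole array passed. It also ended with paired SAM, coded here after the study's named test and not run in its program, which called 0 Hox probe sets. It held in the other 13 alternatives. These include the filter on mean signal, which this probe set reached only through its tibialis anterior signals, so that call is no support.

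The other Hoxa9 probe set, 1421579_at, gave another picture. Its masseter signals were 29.1, 53.4 and 82.5 and its tibialis anterior signals 129.8, 92.7 and 67.0. The ranges overlapped, since masseter 3 was above tibialis anterior 3, and all 6 values were above 28.6. The difference of -0.88 ± 0.44 did not pass (adjusted p = 0.572), with a 95% interval of -1.88 to 0.12. That interval and the interval of 1455626_at, -6.50 to -4.67, do not meet. The positions of the 2 probe sets on the transcript were not used here, and the difference between them was not tested.

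Hoxa10 and Hoxa11 continue the cluster beyond Hoxa9. Hoxa10, a gene of the upper limb segment, had masseter signals of 8.8, 6.0 and 11.4 and tibialis anterior signals of 74.9, 63.5 and 63.9. The groups were well separated, and the tibialis anterior values lay close together. The difference of -2.99 ± 0.53 missed the threshold (adjusted p = 0.0569). It passed in 1 of 14 alternatives, that without the replicate block (adjusted p = 0.0366), and the adjusted p ran up to 0.595 in the others. Hoxa11, a gene of the segment that holds the tibialis anterior, had masseter signals of 24.7, 9.5 and 12.5 and tibialis anterior signals of 39.0, 80.9 and 77.5. The groups did not overlap, with tibialis anterior 1 the closest to the masseter. Its difference was -2.13 ± 0.58 (adjusted p = 0.226). Hoxa13, the digit gene at the end of the cluster, had 30.5, 27 and 27.2 against 32.9, 17.8 and 21.7. These ranges overlapped near the level of 28.6, and the difference was 0.27 with a 95% interval of -0.87 to 1.42.

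Hoxa5 and Hoxa7 lie on the other side of Hoxa9. Hoxa5, known for the neck and upper chest region and for the lung, had masseter signals of 4.0, 2.9 and 6.4 and tibialis anterior signals of 70.8, 37.8 and 20.2. The groups did not overlap, but the tibialis anterior values spread widely and tibialis anterior 3 was under 28.6. The difference was -3.17 ± 0.75 (adjusted p = 0.152). Hoxa7 had 5.5, 4.3 and 8.6 against 43.6, 13.5 and 33.6, again without overlap and with 1 low tibialis anterior array. Its difference was -2.20 ± 0.68 (adjusted p = 0.288). The anterior genes of the cluster were dim. All signals of Hoxa2, a gene of the hindbrain and of the second branchial arch, and of both Hoxa4 probe sets lay under 28.6. Those of the 2 Hoxa3 probe sets ran from 8.0 to 30.3. The Hoxa4 probe set 1420226_x_at, whose suffix marks probes that can also bind other transcripts, had signals of 9.0, 0.8 and 1.9 against 9.8, 10.2 and 16.6 (-2.20, adjusted p = 0.443). The Hoxa3 probe set 1452421_at had 22.2, 24.9 and 24.7 against 15.4, 18.8 and 21.4, the 1 member whose masseter values all lay above the tibialis anterior values (0.38, adjusted p = 0.891).

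**Figure D2:**
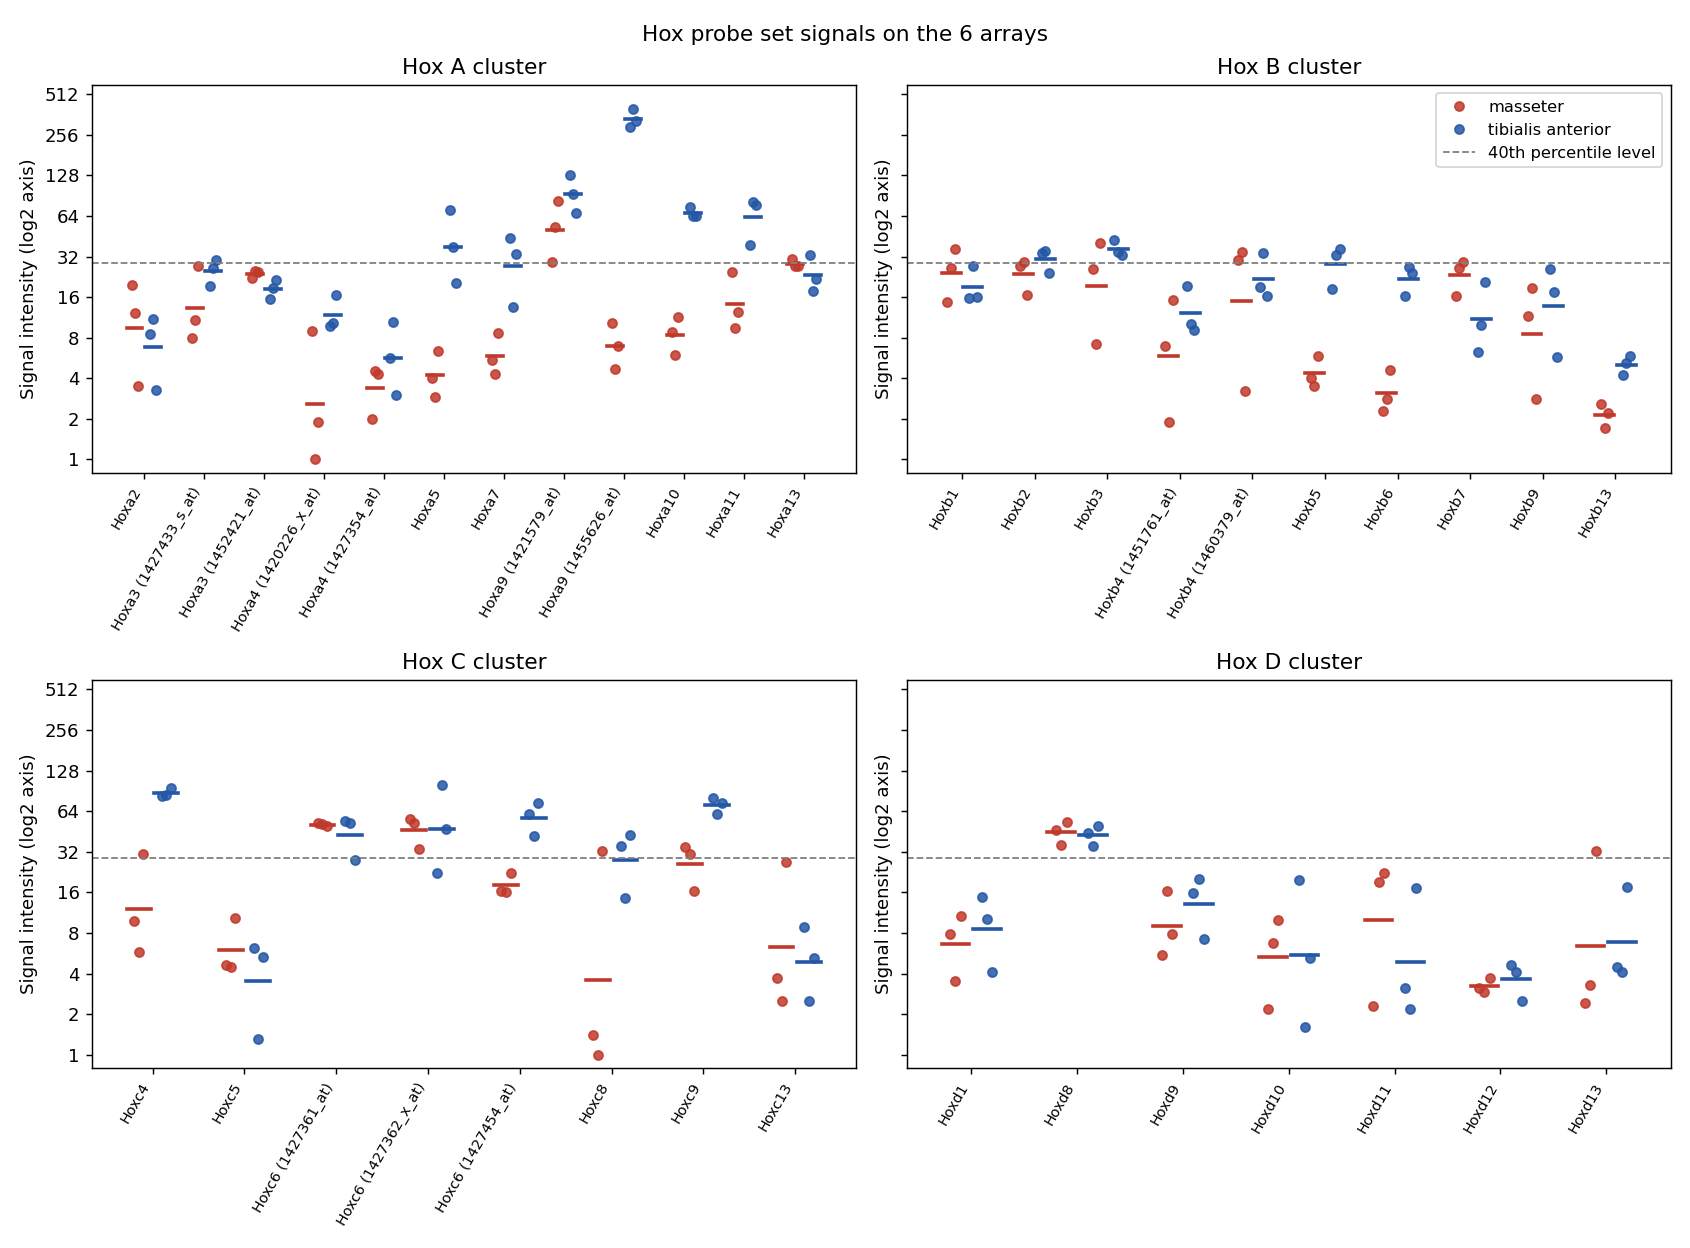
Signal intensity (log2 axis) of each Hox probe set on the 3 masseter arrays (red) and the 3 tibialis anterior arrays (blue), 1 panel for each cluster, with signals under 1 drawn at 1. Short lines are group means of log2 signal, and the dashed line is the level of 28.6. Hoxa9 (1455626_at) stands at 292.7 to 394.9 in the tibialis anterior and under the dashed line in the masseter, while Hoxd8 and 2 of the Hoxc6 probe sets overlap above the line.

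In the C cluster 0 of 8 probe sets passed, and 4 had an unadjusted p under 0.05 with the lower mean in the masseter. The shares of the whole array were 0.327% passing lower, 0.292% passing higher and 4.57% lower at that p. Hoxc4, a gene of the neck region, had masseter signals of 9.8, 5.8 and 31.0 and tibialis anterior signals of 82.3, 84.8 and 95.9. The groups were separated, and masseter 3 was the highest masseter value. The difference of -2.86 ± 0.54 missed the threshold (adjusted p = 0.0733). Over 15 alternatives the adjusted p ran from 0.0267 to 0.650, and 2 passed. In a fit without the replicate block, Hoxc4 passed without masseter 3 (-3.54, adjusted p = 0.0267). It also passed with a filter on the mean of all arrays (adjusted p = 0.0458), which it reached only through its tibialis anterior signals, so that call is no support. Hoxc9, known for the thoracic region, had masseter signals of 34.8, 30.6 and 16.3 and tibialis anterior signals of 80.3, 60.7 and 73.7. All masseter values lay below all tibialis anterior values, and masseter 1 and 2 were above 28.6. The difference was -1.46 ± 0.40 (adjusted p = 0.232).

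The 3 probe sets of Hoxc6, a gene of the upper thoracic region, did not share a pattern. Probe set 1427454_at had masseter signals of 16.5, 16.2 and 22.3 and tibialis anterior signals of 60.6, 41.9 and 73.4, with no overlap (-1.66 ± 0.44, adjusted p = 0.212). Probe set 1427361_at had 51.9, 51.2 and 49.4 against 54.0, 52.5 and 27.6, and 1427362_x_at had 56.2, 52.7 and 33.5 against 22.1, 100.7 and 47.6. Both of these overlapped above 28.6 on most arrays, with differences of 0.25 (95% interval -0.60 to 1.10) and -0.03 (95% interval -1.14 to 1.07). Hoxc8, known for the brachial and thoracic region, had masseter signals of 1.4, 0.5 and 32.5 against 35.6, 14.5 and 42.7 in the tibialis anterior. The ranges overlapped only through masseter 3, and without replicate 3 the difference moved from -2.97 to -4.26 (adjusted p = 0.297 and 0.130). Hoxc5 ran from 1.3 to 10.4 over the 6 arrays. Hoxc13, a gene of hair and nail, ran from 2.5 to 27.1, with its highest value on masseter 3. On that array Hoxd13 was also higher, at 32.4, than on the other masseter arrays, at 2.4 and 3.3. Hoxd13 was likewise higher on tibialis anterior 3, at 17.4, than on tibialis anterior 1 and 2, at 4.5 and 4.1.

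In the B cluster 0 of 10 probe sets passed, where 0.327% of all probe sets passed lower and 0.292% higher. Of the 10, 2 had an unadjusted p under 0.05 (4.57% of all probe sets were lower at that p), Hoxb5 and Hoxb6. Both are known for the level of the forelimb and shoulder. Hoxb5 had masseter signals of 4.0, 3.5 and 5.9 and tibialis anterior signals of 18.5, 32.8 and 36.5 (-2.69 ± 0.68, adjusted p = 0.191). Hoxb6 had 2.3, 2.8 and 4.6 against 16.2, 26.6 and 24.1 (-2.82 ± 0.71, adjusted p = 0.184). In both genes all tibialis anterior values exceeded all masseter values, yet the tibialis anterior means, 28.1 and 21.8, lay under 28.6, near background. With a floor of 16 on the signals the differences were -0.81 and -0.45, so their size depended on that setting. Hoxb13, a gene of the tail end, was separated in the same way at still lower signals, 1.7 to 2.6 against 4.2 to 5.9 (-1.24, adjusted p = 0.636). The means of Hoxb2 and Hoxb3 reached 28.6 in the tibialis anterior, and their ranges overlapped. Hoxb2 had masseter signals of 27.3, 29.1 and 16.5 against 34.0, 35.4 and 24.0 in the tibialis anterior (-0.38, 95% interval -1.48 to 0.72). Hoxb3 had 25.8, 7.2 and 40 against 42.6, 34.6 and 32.7 (-0.90, 95% interval -2.28 to 0.48). Hoxb7 had 16.2, 26.3 and 29.4 against 6.3, 10 and 20.8, the highest positive difference of all members at 1.09 (adjusted p = 0.651). Hoxb1, a hindbrain gene, the 2 Hoxb4 probe sets and Hoxb9 had overlapping signals, from 1.9 to 36.5 in all, and adjusted p-values of at least 0.766.

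In the D cluster 0 of 7 probe sets passed, 0 had an unadjusted p under 0.05 and in 0 were the muscles separated. With 0.327% of all probe sets passing lower and 0.292% higher, 0 of 7 passing says little. At an unadjusted p under 0.05 the array shares were 4.57% and 5.29%, and for separation 6.75% and 7.68%. Hoxd8 was the 1 member with a mean that reached 28.6, with masseter signals of 46.5, 36.1 and 53.0 and tibialis anterior signals of 44.0, 35.4 and 50.1. Within each replicate number these values lay close together, and the difference was 0.06 with a 95% interval of -0.75 to 0.88. The other D cluster genes, Hoxd1, Hoxd9, Hoxd10, Hoxd11, Hoxd12 and Hoxd13, had means under 28.6 in both muscles, with differences from -0.56 to 1.02. Their intervals were wide, for example -2.45 to 2.35 for Hoxd10, a gene of limb patterning and of lumbar motor neurons, and -0.99 to 3.03 for Hoxd11. A difference of the size fitted for Hoxa11, -2.13, lies inside the intervals of Hoxd1, Hoxd9 and Hoxd10, and outside those of Hoxd8, Hoxd11, Hoxd12 and Hoxd13. Except for Hoxd8, these intervals rest on signals near background. They describe the signal and cannot exclude such a difference in transcript.

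Taken by paralogue number, 0 of 7 probe sets of paralogues 1 to 3, 8 of 16 of paralogues 4 to 8, 4 of 9 of paralogues 9 to 11 and 0 of 5 of paralogues 12 and 13 had an unadjusted p under 0.05, each with the lower mean in the masseter. The share of all probe sets at that p was 4.57% lower and 5.29% higher in the masseter. The bounds of these groups were not among the planned results, and no test between the groups was made. The median differences of the groups were -0.35, -1.36, -0.88 and -0.11. The group of low paralogue numbers had 2 of 7 probe sets with a mean reaching 28.6 in a muscle. The groups in the middle had 6 of 16 and 5 of 9, and the group of high numbers 0 of 5. Of the 12 probe sets with an unadjusted p under 0.05, 5 had means under 28.6 in both muscles.

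**Figure D3:**
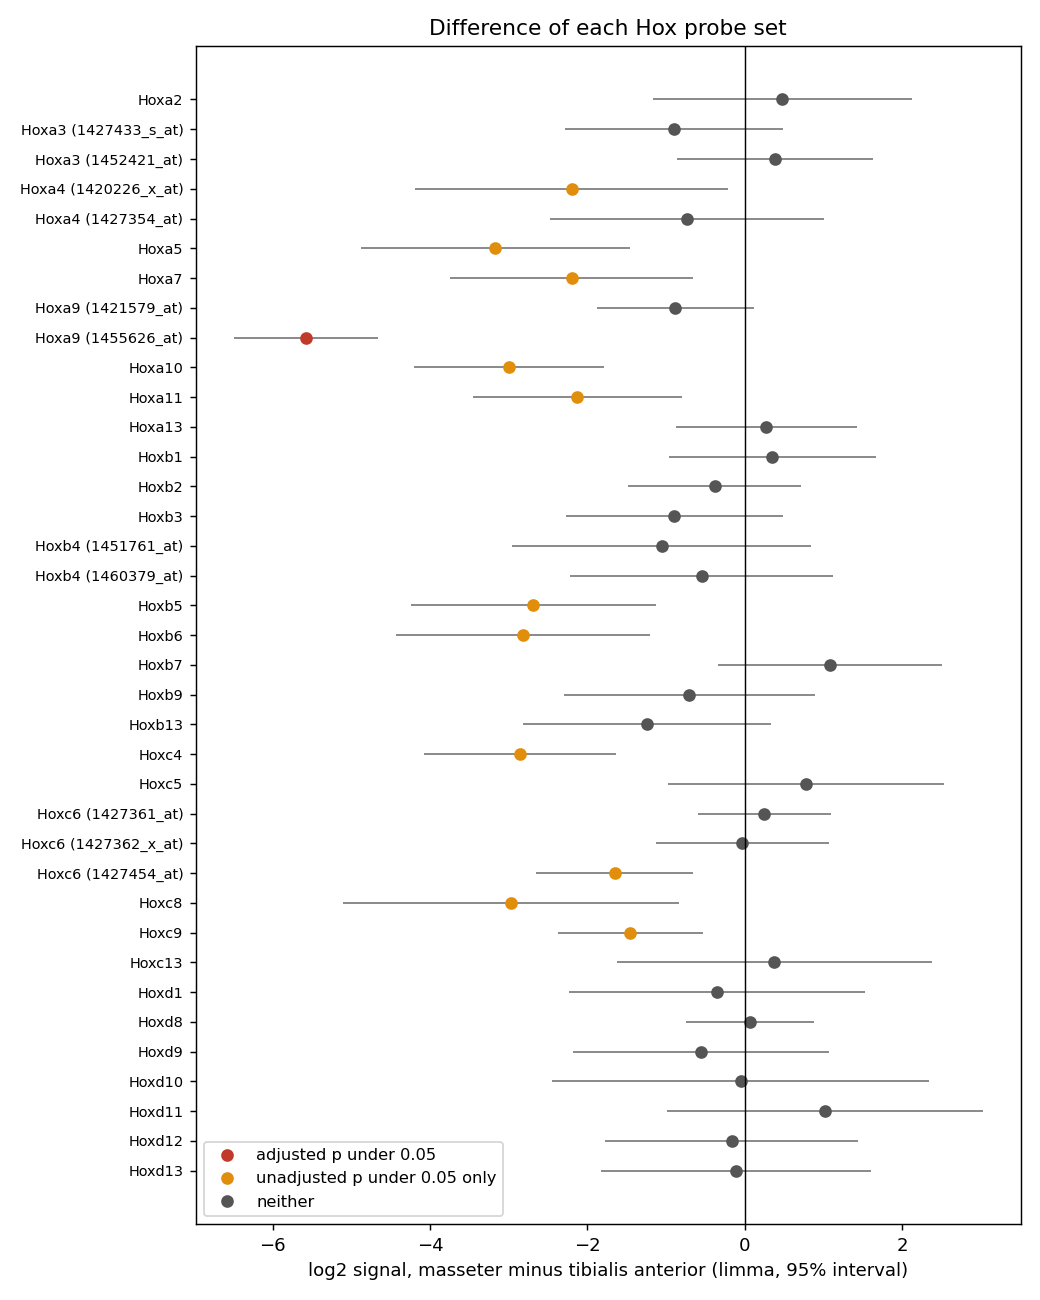
Points are log2 differences of each Hox probe set, masseter minus tibialis anterior, with limma's 95% intervals as bars (3 arrays per muscle), ordered by cluster and paralogue number. Hoxa9 (1455626_at) at -5.58 is the 1 point past the adjusted threshold, 11 further points have an unadjusted p under 0.05 and all of these lie left of 0.

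Genes next to the clusters were read in the same fit. For each cluster the 3 nearest protein-coding genes with a named probe set on each side were taken, a rule added after the Hox values were seen. Of these 24 genes, 0 passed, 2 had an unadjusted p under 0.05 with the lower mean in the masseter and 2 with the higher. Over all probe sets 0.327% passed lower and 0.292% higher, and 4.57% and 5.29% had an unadjusted p under 0.05. The muscles did not overlap in 4 of the 24 with the masseter below and in 3 with it above, against 6.75% and 7.68% of all probe sets. Skap2, an adaptor protein of immune cells beside the A cluster, had a mean masseter signal of 69.2 against 152.7 in the limb muscle (-1.14 ± 0.24, adjusted p = 0.100). Mtx2, beside the D cluster, was the other lower gene, with 237.9 against 332.2 (-0.48 ± 0.14, adjusted p = 0.269). The 2 higher genes were Cbx5, beside the C cluster, and Nfe2l2, beside the D cluster. Cbx5 had 97.9 against 51.4 (0.93 ± 0.26, adjusted p = 0.250). Nfe2l2 had 530.2 against 363.9 (0.54 ± 0.19, adjusted p = 0.349). Evx1 and Evx2, homeobox genes at the posterior ends of the A and D clusters, had means of 7.71 and 12.7, and of 19.7 and 26.5 (adjusted p = 0.865 and 0.891).

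Genes that act with or on the Hox clusters did not pass. Over all probe sets only 0.327% passed lower in the masseter and 0.292% higher, so counts of 0 in short lists say little. TALE homeodomain proteins bind DNA together with Hox proteins, and 0 of 8 measured genes of that class passed in either direction. The smallest p was that of Meis2, with masseter signals of 39.6, 19.5 and 28.1 against 19.3, 2.5 and 11.5 in the tibialis anterior (1.76 ± 0.68, adjusted p = 0.433). Polycomb proteins hold Hox genes silent, and 0 of 20 measured genes passed. Mtf2, an accessory subunit of the complex that methylates histone H3, had the smallest p, with signals of 223.1, 168.6 and 222.8 against 125.7, 142.9 and 112.4 (0.68 ± 0.20, adjusted p = 0.270). Trithorax proteins and histone demethylases oppose that silencing, and 0 of 6 measured genes passed, with the smallest p for Psip1 (0.57 ± 0.29, adjusted p = 0.594). Of 16 measured upstream regulators, among them receptors and enzymes of retinoic acid, 0 passed. Aldh1a2, which makes retinoic acid, had signals of 39.5, 57.1 and 47.7 against 13.3, 12.6 and 23.2, without overlap (1.60 ± 0.50, adjusted p = 0.297). At an unadjusted p under 0.05, counted on each gene's brightest probe set, there were 1 higher and 1 lower of the 8, 2 higher of the 20, 0 of the 6 and 1 higher of the 16. Over all probe sets 4.57% were lower and 5.29% higher at that p.

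Since whole muscles were used, markers of other cells that can hold Hox transcripts were read on the same arrays. The mean log2 signal of the 8 fibroblast markers was 8.26 to 8.50 on the masseter arrays and 8.45 to 8.65 on the tibialis anterior arrays, and 0 of 8 passed. That of the 6 measured tendon markers was 5.79 to 6.49 and 6.45 to 6.94, and Thbs4, a tendon matrix protein also made by muscle, was lower in the masseter, with means of 137.2 and 431.5 (-1.65 ± 0.24, adjusted p = 0.0297). Satellite cell markers, 6 in number, gave 4.98 to 5.84 and 5.42 to 5.89, endothelial markers, 6, gave 6.77 to 6.94 and 6.63 to 7.09, and smooth muscle and pericyte markers, 6, gave 8.47 to 8.61 and 8.61 to 8.93, with 0 past the threshold in each. The 4 measured Schwann cell and nerve markers gave 7.08 to 7.36 and 6.58 to 6.59, with 0 past the threshold, and the 6 immune markers 6.42 to 6.92 and 6.35 to 6.70, also with 0. Markers of the salivary gland, which lies beside the masseter, gave 11.18, 7.51 and 6.04 on masseter 1, 2 and 3 over 7 genes. On tibialis anterior 1, 2 and 3 they gave 7.53, 6.36 and 5.31. Of the 7 genes 2 passed higher in the masseter. Adipocyte markers gave 7.09 to 8.08 and 6.37 to 7.58 over 4 genes, with 1 higher, and the 6 skin markers 3.95 to 4.83 and 4.17 to 4.49, with 0 past the threshold. Since signals under 1 were raised to 1, no mean could be 0, and the absence of a cell type was not assessed. Over all probe sets 0.327% passed lower in the masseter and 0.292% higher. At an unadjusted p under 0.05, on each gene's brightest probe set, 2 of 8 fibroblast markers were lower in the masseter and 2 higher. Of 6 tendon markers 2 were lower, and of 6 smooth muscle and pericyte markers 2. Higher were 2 of 4 Schwann cell and nerve, 1 of 6 immune and 2 of 4 adipocyte markers. Salivary markers had 4 higher and 1 lower, skin markers 1 and 1, and satellite cell and endothelial markers 0. At that p 4.57% of all probe sets were lower and 5.29% higher. Pax7 and Myf5, which define satellite cells, had means under 28.6 in both muscles. The part of these cells in the Hox differences was not tested.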

How the data were processed

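Total RNA of the 6 muscle samples was amplified, biotin-labelled and hybridised, per the labels' protocols. The authors deposited linear signal intensities, 1 value for each probe set on each array. MAS5 and GCOS are the programs listed, without versions or settings, per the submitters' processing notes. Because the trimmed mean of the deposited values was equal on all arrays, no further scaling was applied.

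Gene symbols came from the platform annotation: of 22690 probe sets, 64 were controls, 20380 had 1 symbol, 691 several and 1555 none. All 37 members had the same symbol in the RefSeq table by gene identifier. Values were taken to log2 after raising those under 1 to 1. All 22626 other probe sets were tested in a linear model (limma 3.58.1, R 4.3.3) whose variance prior followed the mean signal (eBayes with trend). The test was two-sided, Benjamini-Hochberg adjusted, with a threshold of 0.05. No filter was applied, so every member was tested.

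Replicate numbers from the titles entered as a block, since paired comparisons are named in the series' design text. Deviations from the group means correlated at 0.039, 0.152 and 0.101 for samples numbered 1, 2 and 3 (13576 probe sets kept by the filter), and between -0.157 and 0.0468 for unlike numbers. A bound given as "at least" sets the brighter mean against the signal of 28.6, the 40th percentile. Group means are means of log2 signal given on the linear scale. A list gene passed where any of its probe sets passed, and list means used each gene's brightest probe set. Precision is limited by the number of arrays.

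The rule for named genes gave values for members past the threshold or with a mean reaching 28.6, and the gene with the smallest p of each other list where none passed. Values of other members, and of Skap2, Mtx2, Cbx5, Nfe2l2, Evx1 and Evx2, were added after they were seen. Members and lists were chosen with earlier results of these data known. The fit was run on simulated data as a check of the code. Their spread followed the mean signal by construction, so that run cannot judge the use of the trend.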

Additional observations from a re-analysis of the deposited data

How the results depend on the processing

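The count of Hox probe sets past the threshold was 1 in the reported fit. With the filter at the 40th percentile it was 2 (Hoxa9 and Hoxc4, both kept through their tibialis anterior signals). With no replicate block it was 2 (Hoxa9 and Hoxa10). It was 0 with eBayes without the trend, 0 with a floor of 16 and 0 with paired SAM, coded here after the study's named test. It ran from 1 to 2 when replicates or single arrays were left out, and was 2 (Hoxa9 and Hoxc4) without masseter 3. The count over all probe sets, 140 in the reported fit, was 160 with that filter, 91 with no replicate block, 0 with eBayes without the trend, 0 with a floor of 16, 74 with an offset of 16, 91 with quantile normalization, and 1 with paired SAM. Without both arrays of a replicate number it ran from 92 to 139. Without single arrays, in fits with no replicate block, it was 56 without masseter 1, 30 without masseter 2, 45 without masseter 3, and 51, 50 and 46 without tibialis anterior 1, 2 and 3. In limma without the trend, 12 Hox probe sets had an unadjusted p under 0.05 with the lower mean in the masseter and 1 with the higher, of 1616 probe sets in all, and with the floor of 16 the counts were 7 and 1 of 1880. The cause of these changes was not tested. The filter changed both the number of probe sets tested and the probe sets from which the variance prior was fitted. Paired SAM rests on only 8 sign flips of the 3 pairs. As coded here, its added constant was the median standard error, so its calls can differ from those of the study's program. At an unadjusted p under 0.05, between 10 and 13 Hox probe sets had the lower mean in the masseter in each fit over all probe sets other than that with the floor of 16. The sign of the difference changed in at least 1 alternative for 13 members, none of them past the threshold in any fit. Most Hox signals in the masseter lay near background, where signal limits the precision of a ratio.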
